A study of Mus musculus with 18 samples.

Results

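Total RNA was compared between 2 sorted populations of mouse myeloid-derived suppressor cells (MDSC). The comparison rests on 6 of the 18 libraries of the study, 3 named LY6G and 3 named LY6C, chosen by their sample names. Bone marrow of wild-type C57BL/6 mice was differentiated in culture for 5 days and sorted. The LY6G population was high in CD11b and Ly6G with intermediate Ly6C, and the LY6C population was high in CD11b and Ly6C and lacked Ly6G. Both were plated after the sort, collected the day after and incubated with cycloheximide, which stalls ribosomes, so both groups share the drug and the second culture. The remaining libraries hold polysome-bound RNA of the same populations and RNA of bone marrow that was not cultured. The submitters describe 3 independent biological replicates, which carry the numbers 2, 3 and 6 in both populations. The marrow came from 3 mice, per the labels. The labels leave unsaid whether a number marks 1 mouse or 1 culture split by the sort. These are cultured and replated cells, and not MDSC taken from a tumour or a tissue.

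MDSC, which restrain T cells, are myeloid cells that have not completed maturation. They are usually divided into a granulocytic kind that carries Ly6G and a monocytic kind that carries high Ly6C. Granulocytic cells are known for neutrophil granule enzymes, and monocytic cells for arginase 1, inducible nitric oxide synthase and growth factor receptors of the macrophage line. Type I interferon and the cell cycle each switch on a well described set of genes in myeloid cells.

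The order of values below is always number 2, number 3, number 6. Total counts were 21138649, 8684335 and 8559897 in LY6C, and 17038444, 15148630 and 16247718 in LY6G. Protein-coding genes took 93.5, 37.3 and 54.5% of the counts in LY6C and 89.6, 72.0 and 78.2% in LY6G, and mitochondrial ribosomal RNA took 1.66, 30.6 and 24.0% against 3.22, 18.8 and 13.2%. Nuclear loci that resemble ribosomal RNA took 2.74, 30.5 and 19.3% in LY6C and 3.69, 6.29 and 5.29% in LY6G. The LY6C libraries numbered 3 and 6 therefore had the fewest counts of protein-coding genes. Levels are CPM, each gene's counts scaled to the size of its library after trimmed-mean normalization, where 1 CPM stood for 28.8, 4.75 and 6.26 counts in LY6C and 23.3, 16.6 and 19.8 counts in LY6G. On the first principal component, which held 49.4% of the variance, the LY6C library numbered 3 lay at −95.4 and the other 5 between −6.91 and 62.3. That library stood apart, and values without it are given for some of the lists. A list given without such a value may depend on that library too. In bulk RNA, fewer cells of a type and less RNA per cell cannot be told apart.

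Whether genes were called between the populations depended on the fit. Of 13123 genes tested with edgeR's quasi-likelihood test, 0 passed a Benjamini-Hochberg adjusted p of 0.05 (0% of all genes), and the lowest adjusted p was 0.865. At an unadjusted p under 0.05 there were 613 genes (4.67%), 314 with LY6G higher (2.39%) and 299 with LY6G lower (2.28%). With the replicate number as a block, 0 genes passed as well (lowest adjusted p = 0.281), and 1690 (12.9%) were under an unadjusted 0.05, 732 with LY6G higher (5.58%) and 958 with LY6G lower (7.3%). DESeq2 called 0 genes without the block and 195 with it (1.49%), 65 higher (0.495%) and 130 lower (0.991%) in LY6G. In the gene groups below, "lower in every number" means that the LY6G library lay below the LY6C library of the same number in all 3 pairs, which held for 2784 genes (21.2%), and LY6G lay above in all 3 pairs for 2423 genes (18.5%). The populations did not overlap for 853 genes higher in LY6G (6.5%) and 783 genes lower (5.97%).

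The RNA of the sort antigens followed the gate in part. Ly6g (ENSMUSG00000022582), which encodes the antigen of the LY6G gate, had 7.06, 15.8 and 16.0 CPM in LY6C and 6.28, 6.57 and 32.1 CPM in LY6G. Only number 6 placed LY6G above LY6C, and the groups overlapped, with a log2 difference of LY6G minus LY6C of 0.23 ± 0.68 (SE, edgeR adjusted p = 0.964, n = 3 each) and of −0.11 with the replicate block. Ly6c2 (ENSMUSG00000022584, GRCm38 chromosome 15, 75108158 to 75111970), a gene of the Ly6C antigen, had 293, 358 and 315 CPM in LY6C and 217, 266 and 180 CPM in LY6G. Every LY6G library lay below every LY6C library, and the difference of −0.54 ± 0.26 did not pass (edgeR adjusted p = 0.865, and 0.363 with the block). Its near-identical neighbour Ly6c1 had 0 to 28 counts a library and was not tested, so how reads were shared between them is uncertain. Itgam, which encodes CD11b, was at 156, 128 and 207 CPM in LY6C and 190, 235 and 170 CPM in LY6G, and the groups overlapped.

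Both populations carried macrophage-line and neutrophil transcripts together. Csf1r, the receptor for macrophage colony-stimulating factor, had 1061, 462 and 1260 CPM in LY6C and 928, 880 and 953 CPM in LY6G. The LY6C library numbered 3 was the lowest of the 6, and the others lay close together. Lyz2, the myeloid lysozyme, had 5246, 1892 and 2759 CPM against 4328, 4793 and 2947 CPM, again lowest in that library. S100a8, a calcium-binding protein abundant in neutrophils and monocytes, had 1046, 1570 and 227 CPM in LY6C and 956, 1004 and 448 CPM in LY6G, so that number 6 was low in both populations. S100a9, its partner, had 787, 2381 and 357 CPM against 879, 1127 and 604 CPM. Over 26 macrophage identity genes tested, the median log2 difference was 0.21 against −0.02 over all genes, and within numbers 2, 3 and 6 it was −0.12, 1.35 and −0.41. Of the 26, 4 were higher in every number (15.4%), a share close to the 18.5% of all genes. The 1 that was lower in every number is 3.85%, beside 21.2% of all genes. Without the LY6C library numbered 3 the median was −0.04. For none of Csf1r, Lyz2, S100a8 and S100a9 did the populations separate.

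**Figure D1:**
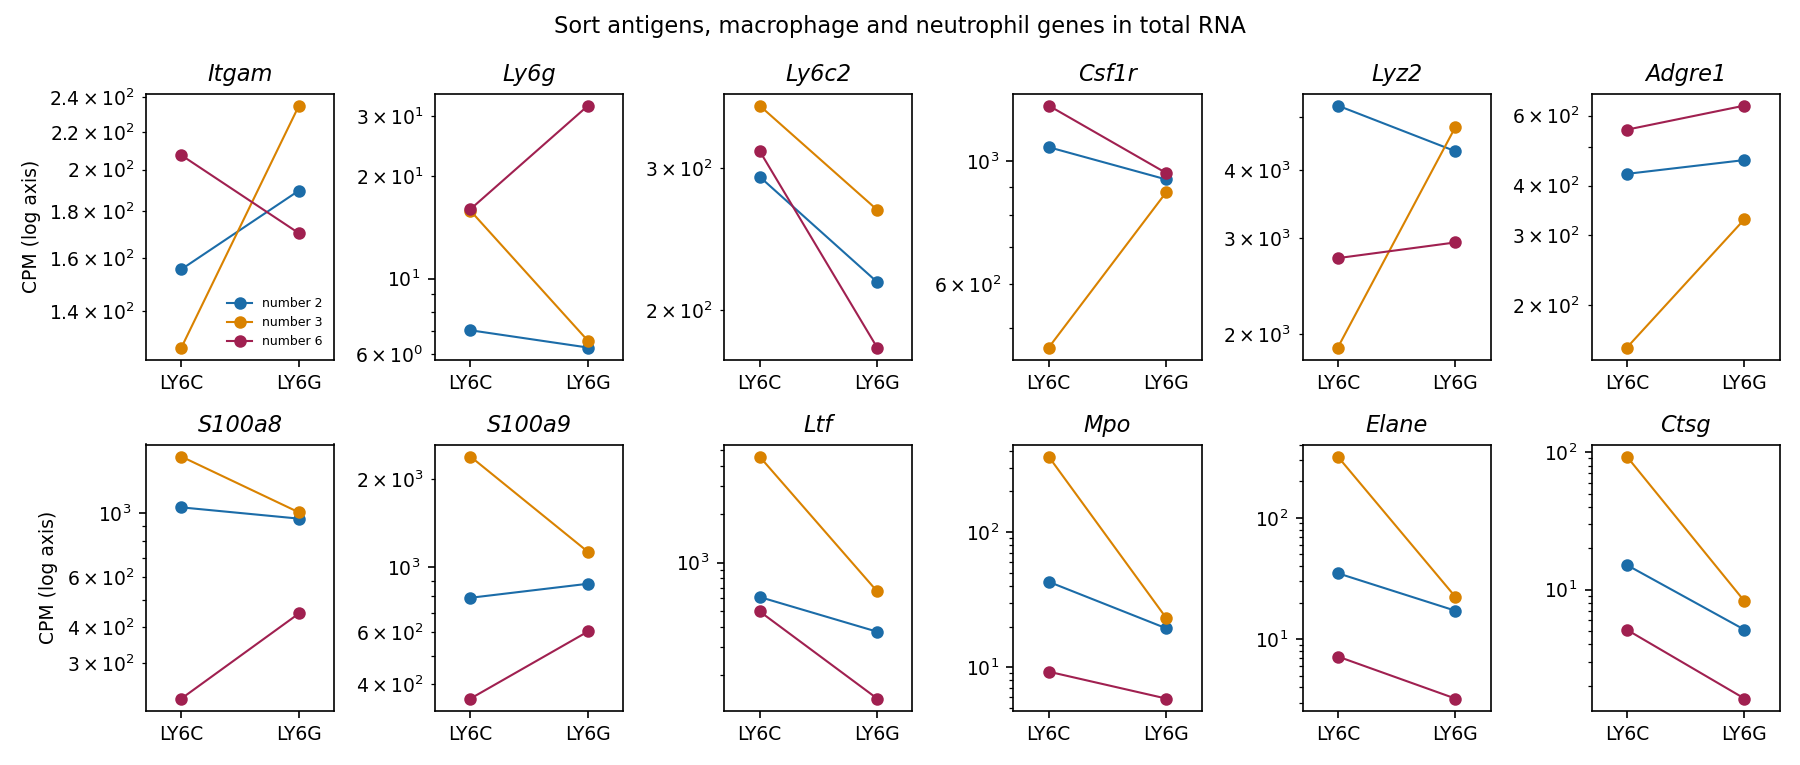
Level in CPM (log axis, its range set for each gene) of 12 genes in the LY6C and LY6G total RNA libraries. A line joins the 2 libraries of 1 replicate number. Ly6c2 is lower in LY6G along every line, while Ly6g is higher in number 6 alone. Mpo, Elane and Ctsg are lower in LY6G along every line, and the LY6C library numbered 3 is the highest.

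Genes of the primary granule, the early neutrophil granule, stood lower in LY6G and not higher. Of 10 listed genes 9 were tested, since Bpi had 0 to 1 counts. Of the 9, 8 had a negative difference and 7 were lower in every number (77.8%, beside 21.2% of all genes). Mpo, myeloperoxidase, had 42.9, 363 and 9.27 CPM in LY6C and 19.4, 23.1 and 5.86 CPM in LY6G. Elane, neutrophil elastase, had 35.0, 321 and 7.19 CPM against 17.2, 22.4 and 3.23 CPM. Ctsg (ENSMUSG00000040314, chromosome 14, 56099881 to 56102574), cathepsin G, had 15.1, 92.9 and 5.11 CPM against 5.12, 8.25 and 1.62 CPM. In each of the 3 genes LY6C was above LY6G within each number, the LY6C library numbered 3 was far above all others, and the groups overlapped across numbers.

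The log2 difference was −3.09 ± 1.20 for Mpo, −3.08 ± 1.29 for Elane and −2.90 ± 1.05 for Ctsg (SE, edgeR adjusted p = 0.865 for all 3). With the block it was −1.93 ± 0.71, −2.03 ± 0.61 and −2.29 ± 0.41, with adjusted p of 0.365, 0.308 and 0.281. DESeq2 with the block called Ctsg, Elane, Fcnb and Prss57 lower (adjusted p = 8.13e-05 for Ctsg). These 4 of 9 are 44.4%, beside 0.991% of all genes. Fcnb, a soluble ficolin, had 17.5, 94.2 and 16.9 CPM in LY6C and 10.9, 17.8 and 4.70 CPM in LY6G, and Prss57, a granule serine protease, 4.73, 52.2 and 3.36 CPM against 2.62, 7.23 and 1.77 CPM. The list's median was −2.36, and it was −0.68, −2.83 and −0.65 within numbers 2, 3 and 6. Without the LY6C library numbered 3 it was −0.19, and without both libraries of number 3 it was −0.87. Ctsc, which activates granule proteases and is also a lysosomal enzyme of macrophages, was the 1 member with a positive difference, at 917, 632 and 938 CPM against 927, 1384 and 825 CPM.

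Of 27 tested genes of neutrophil maturation and later granules, 23 had a negative difference. The median was −0.30, and −0.63 to −0.1 when libraries were left out. The 6 that were lower in every number are a share close to the 21.2% of all genes. Ltf, lactoferrin, had 612, 4567 and 498 CPM in LY6C and 372, 663 and 143 CPM in LY6G. Ngp, a neutrophil granule protein, had 556, 2115 and 215 CPM against 340, 491 and 124 CPM, and Cd177, a neutrophil surface protein, 284, 1321 and 223 CPM against 198, 288 and 118 CPM. These 3 were lower within each number and were called lower by DESeq2 with the block (11.1% of the 27, beside 0.991% of all genes). Camp, the cathelicidin gene, had 68.6, 1061 and 87.9 CPM against 72.0, 122 and 31.0 CPM, so that number 2 did not share the direction. Csf3r, the receptor for granulocyte colony-stimulating factor, had 510, 107 and 61.99 CPM against 402, 82.4 and 229 CPM, and Cxcr2, a chemokine receptor, 90.7, 55.0 and 60.4 CPM against 60.6, 37.5 and 62.3 CPM. Both had LY6G below LY6C in numbers 2 and 3 and above it in number 6.

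Proliferation genes were the group with the most regular direction. Of 33 listed cell cycle genes 32 were tested (Kif11 was listed at 0 in every library), and all 32 were lower in LY6G in every number, where 21.2% of all genes were. Mki67, the proliferation marker Ki-67, had 227, 578 and 119 CPM in LY6C and 199, 306 and 85.5 CPM in LY6G. Top2a, the topoisomerase of dividing cells, had 213, 465 and 96.8 CPM against 159, 291 and 25.0 CPM. Mcm3 (ENSMUSG00000041859, chromosome 1, 20802968 to 20820312), a subunit of the helicase that opens replication origins, had 79.9, 226 and 43.1 CPM against 55.0, 83.9 and 15.8 CPM. Number 3 was the highest and number 6 the lowest in both populations for all 3 genes, and the groups overlapped across numbers in all 32.

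The median log2 difference of the 32 genes was −0.68, and within numbers 2, 3 and 6 it was −0.33, −0.76 and −1.43. None passed edgeR's test with or without the block, and 22 were at an unadjusted p under 0.05 with the block and a lower LY6G level, beside 7.3% of all genes. The differences with the block were −1.14 ± 0.24 for Mcm3 (adjusted p = 0.281), −1.17 ± 0.22 for Mcm2 (0.281), −1.002 ± 0.314 for Top2a (0.290) and −0.53 ± 0.24 for Mki67 (0.394). DESeq2 with the block called 11 of the 32 lower (34.4%, beside 0.991% of all genes). All 6 listed Mcm genes had differences between −1.22 and −0.59 without the block, whereas Tyms, thymidylate synthase, and Pcna, the sliding clamp of DNA polymerase, were at −0.11 and −0.19. Without the LY6C library numbered 3, the median without the block was 0.00. Without both libraries of number 3 it was −0.64, and with offsets for GC content −0.77.

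The replication-dependent histone genes, which are transcribed in S phase, gave 54 of 58 negative differences, with a median of −0.74 (−0.25, −1.08 and −0.58 by number). Of the 58, 35 were lower in every number (60.3%, beside 21.2% of all genes). The near-identical copies of histone genes make single members uncertain. DESeq2 with the block called 8 of the 58 lower (13.8%, beside 0.991% of all genes). Without the LY6C library numbered 3 the median was 0.06, and without both libraries of number 3 it was −0.27. Of 23 cholesterol synthesis genes 20 were negative and 18 lower in every number (78.3%, beside 21.2% of all genes), with a median of −0.47. Fdft1, squalene synthase, had 16.2, 65.3 and 13.7 CPM in LY6C and 13.03, 23.8 and 9.09 CPM in LY6G, lower within each number, and the groups overlapped. No cholesterol gene was called for the population by edgeR or DESeq2, with or without the block, and the median without the LY6C library numbered 3 was 0.04.

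Inflammatory cytokine and chemokine genes leaned the other way. Of 28 tested, 26 had a positive difference and 12 were higher in LY6G in every number (42.9%, beside 18.5% of all genes), with a median of 0.42. Cxcl2, a neutrophil-attracting chemokine, had 315, 121 and 449.7 CPM in LY6C and 471, 535 and 496 CPM in LY6G. Ccl6, a monocyte-attracting chemokine, had 585, 165 and 384 CPM against 775, 777 and 708 CPM. Lif, a cytokine of the interleukin-6 family, had 41.5, 35.8 and 44.1 CPM against 48.6, 73.9 and 54.9 CPM. For these 3 genes every LY6G library lay above every LY6C library, and no other gene of the list had groups that did not overlap. These are 3 of 28, beside 6.5% of all genes.

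The log2 difference was 0.76 ± 0.45 for Cxcl2, 0.99 ± 0.44 for Ccl6 and 0.55 ± 0.24 for Lif (SE, edgeR adjusted p = 0.865 for all 3). With the block, adjusted p was 0.365, 0.293 and 0.383. DESeq2 with the block called Ccl6 (adjusted p = 0.0322) and Cxcl3 (0.0211) higher, 7.14% of the list beside 0.495% of all genes. Cxcl3, a close relative of Cxcl2, had 86.7, 25.1 and 479.6 CPM in LY6C and 196, 179.8 and 587 CPM in LY6G. The median of the list was 0.26, 1.79 and 0.14 within numbers 2, 3 and 6, and 0.14 without the LY6C library numbered 3. Il1b and Tnf, the classical early cytokines, did not share the direction across numbers, with 1139, 212 and 837 CPM against 961, 618 and 915 CPM for Il1b and 432, 156 and 121 CPM against 372, 399 and 95.1 CPM for Tnf.

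**Figure D2:**
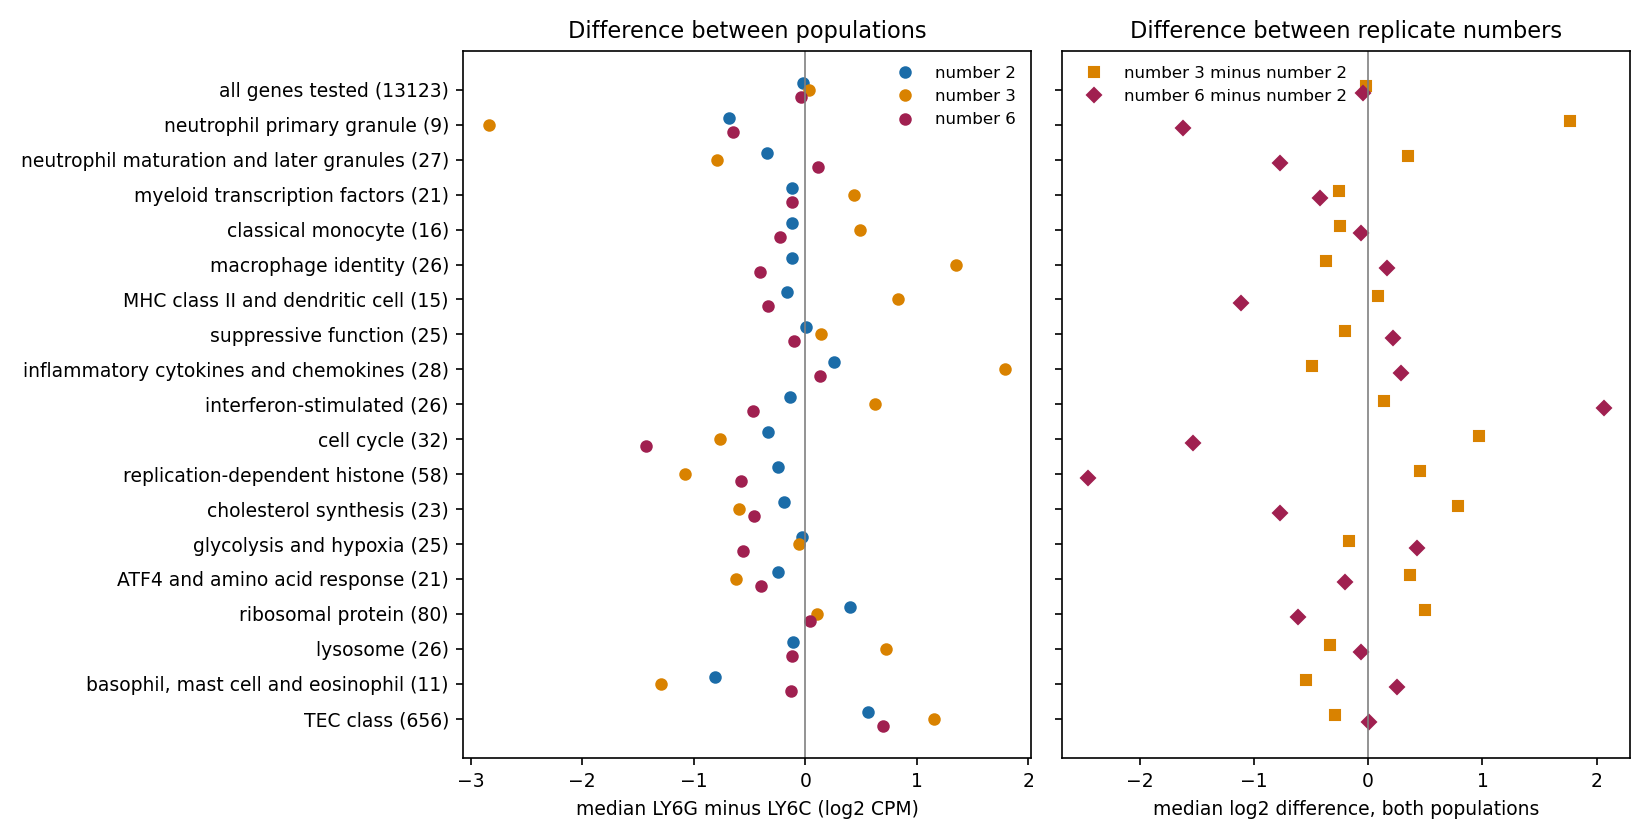
Left, median log2 difference of LY6G minus LY6C over the tested genes of each list (number of genes in brackets) within each replicate number. Right, median log2 difference of numbers 3 and 6 from number 2 over both populations. Cell cycle, histone, cholesterol and primary granule medians are negative in every number on the left, and interferon-stimulated genes lie at 2.06 in number 6 on the right.

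Marker lists of other cells differed in direction. All 11 tested basophil, mast cell and eosinophil genes had negative differences and 7 were lower in every number (63.6%, beside 21.2% of all genes). Their summed level was 127, 112 and 124 CPM in LY6C and 84.0, 52.1 and 79.8 CPM in LY6G, so that the groups did not overlap. Prg2, the major basic protein of eosinophils, had 10.0, 15.6 and 27.3 CPM against 3.40, 4.64 and 7.83 CPM, a difference of −1.73 ± 0.48 (edgeR adjusted p = 0.865, and 0.281 with the block), and DESeq2 with the block called it lower (adjusted p = 0.000381). Epx, eosinophil peroxidase, had 6.85, 7.37 and 10.5 CPM against 1.89, 1.02 and 5.46 CPM. Mcpt8, a basophil protease, had 12.9, 4.63 and 6.23 CPM against 4.21, 2.23 and 5.86 CPM, and overlapped. The list's median was −0.63, and −0.65 without the LY6C library numbered 3. Summed stem and progenitor genes were at 57.1, 108 and 47.6 CPM in LY6C and 41.4, 28.8 and 43.8 CPM in LY6G, without overlap, with 6 of 7 differences negative. Summed erythroid genes were at 178, 354 and 126 CPM against 157, 156 and 95.5 CPM and overlapped, with all 7 differences negative. Only 2 of 16 T cell and NK cell genes were tested, with a summed level of 2.56 to 20.2 CPM in LY6C and 3.01 to 3.33 CPM in LY6G. Megakaryocyte and platelet genes lay the other way, with a median of 0.68, and 0.07 to 1.13 when libraries were left out. Of 8 tested, 5 were higher in every number (62.5%, beside 18.5% of all genes) and 1 lower (12.5%, beside 21.2%). Their summed level of 175, 95.6 and 452 CPM in LY6C and 281, 243 and 397 CPM in LY6G overlapped. B cell and plasma cell genes had medians of −2.80, −0.17 and 0.57 in numbers 2, 3 and 6 over 7 tested genes, and a summed level of 73.0, 27.0 and 27.2 CPM against 24.3, 22.3 and 39.1 CPM. The part of these cells in the lower granule and cell cycle levels of LY6G was not tested.

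Genes tied to suppression did not separate the populations. Of 25 tested, 11 differences were positive and 14 negative, with a median of −0.03. Arg1 (ENSMUSG00000019987, chromosome 10, 24915221 to 24927484), arginase 1, had 23.3, 9.69 and 1104 CPM in LY6C and 58.4, 40.2 and 759 CPM in LY6G. Nos2 (ENSMUSG00000020826, chromosome 11, 78920787 to 78960254), inducible nitric oxide synthase, had 2.40, 4.00 and 483 CPM against 4.26, 5.36 and 96.9 CPM. Both were high in number 6 and low in numbers 2 and 3 of both populations, and within numbers 2 and 3 LY6G was the higher. Tgfb1, the cytokine TGF-beta 1, had 315, 333 and 332 CPM against 294, 283 and 257 CPM, and Vsir, the checkpoint protein VISTA, 480.0, 715 and 406 CPM against 392, 337 and 382 CPM. These were the 2 of 25 members whose groups did not overlap, both with LY6G lower, a share near the 5.97% of all genes. Their differences were −0.23 ± 0.22 for Tgfb1 (edgeR adjusted p = 0.878) and −0.53 ± 0.29 for Vsir (0.865).

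Of the remaining lists, glycolysis and hypoxia genes had 18 of 25 negative differences and a median of −0.30. In 5 of the 25 the groups did not overlap, all 5 lower in LY6G, beside 5.97% of all genes. These were Hk1, the hexokinase that starts glycolysis, Gpi1, Gapdh, Eno1 and Pkm, the pyruvate kinase that ends it. Hk1 had 103, 152 and 196 CPM in LY6C and 74.2, 99.0 and 87.3 CPM in LY6G, and Eno1, enolase, had 1139, 1081 and 1326 CPM against 952, 924 and 921 CPM. Their differences were −0.79 ± 0.29 and −0.34 ± 0.26, and neither passed (edgeR adjusted p = 0.865 for both). Among 26 lysosome genes, Lamp1 and Lamp2, glycoproteins of the lysosomal membrane, were the 2 whose groups did not overlap, both higher in LY6G, a share near the 6.5% of all genes. Lamp2 had 281, 183 and 272 CPM against 332, 389 and 295 CPM. Of 21 myeloid transcription factors only Myb, a regulator of progenitors, did not overlap, at 9.14, 58.4 and 8.63 CPM against 4.21, 7.65 and 6.52 CPM. Of 21 genes of the ATF4 and amino acid response 17 had negative differences, while the cystine transporter Slc7a11 was higher in every LY6G library. Ribosomal protein genes had 54 of 80 positive differences and a median of 0.21, with 33 higher in every number (41.2%, beside 18.5% of all genes). That median lay between −0.06 (without the LY6G library numbered 3) and 0.51 (without the LY6C library numbered 3), and was −0.04 without the LY6C library numbered 6. The glycolysis median was −0.04 without the LY6C library numbered 6 as well. The ATF4 list had a median of −0.34, which was −0.18 without the LY6C library numbered 3 and −0.61 without the LY6G library numbered 3. Among 16 monocyte genes, with a median of −0.06, Itgal, the integrin chain CD11a, had 258, 283 and 272 CPM against 198, 205 and 130 CPM and did not overlap.

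Among the genes with at least 10 CPM on average in the higher population and groups that did not overlap, 335 were higher and 656 lower in LY6G. Without that level, 853 of all genes were higher (6.5%) and 783 lower (5.97%), so the excess of lower genes depends on it. Of the genes that reached the level, the 12 with the lowest p in each direction, leaving out names of gene models, are described here. Lilrb4a (ENSMUSG00000112148, chromosome 10, 51490956 to 51496611), an inhibitory receptor of myeloid cells, had 172, 72.0 and 121 CPM in LY6C and 432, 209 and 294 CPM in LY6G. Its difference was 1.35 ± 0.40 (edgeR adjusted p = 0.865, and 0.281 with the block), and it had the lowest adjusted p of the higher genes in DESeq2 with the block, 8.13e-05. P2ry10b, a receptor of the purinergic family, had 6.67, 3.37 and 6.87 CPM against 17.9, 33.8 and 11.7 CPM. Mt1, a metallothionein that binds zinc and copper, had 32.7, 34.3 and 37.5 CPM against 69.8, 70.2 and 43.1 CPM. Slc15a2, a transporter of small peptides, had 9.77, 10.1 and 9.75 CPM against 27.7, 19.7 and 12.8 CPM. Ccdc50 had 98.9, 70.8 and 115 CPM against 135, 198 and 245 CPM. All 5 were higher in every LY6G library than in any LY6C library, as the rule required.

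The other higher genes were Gdap10, Sept2, Zfp655, Mthfsl, Cln8, Cox17, a copper chaperone for cytochrome oxidase, and Tma7, with log2 differences from 0.77 to 1.45. On the lower side, Tap2, a subunit of the peptide transporter for MHC class I, had 154, 306 and 324 CPM in LY6C and 98.6, 137 and 111 CPM in LY6G, a difference of −1.18 ± 0.34. Syne1, which links the nucleus to the cytoskeleton, had 912, 2104 and 1784 CPM against 663, 594 and 357 CPM. Hps6, needed to form lysosome-related organelles, had 19.4, 26.1 and 22.4 CPM against 11.6, 12.8 and 10.3 CPM. Celsr1, a cadherin of planar cell polarity, had 5.21, 33.5 and 9.91 CPM against 2.62, 4.04 and 1.62 CPM, highest in the LY6C library numbered 3. Prg2, given above, was among the 12 too. The other lower genes were Irf2bp1, Kcnk12, a potassium channel, Spint2, a protease inhibitor, Ppp1r35, Tbcc, Ddx28 and Ppp6r1, with differences from −3.11 to −0.77. None of the 24 passed edgeR's test, with adjusted p of 0.865 without the block and 0.281 to 0.283 with it.

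Of the 195 genes called by DESeq2 with the replicate block, 81 had populations that did not overlap. That 193 had 1 sign in all 3 numbers follows from a fit within pairs and is no separate support. The members named in this paragraph were chosen after their values were seen. DNA replication genes among the lower calls included Lig1, a DNA ligase, at 43.1, 142 and 38.0 CPM in LY6C and 27.5, 41.6 and 10.3 CPM in LY6G, and Uhrf1, which maintains DNA methylation, at 72.2, 188 and 32.8 CPM against 40.3, 83.1 and 10.8 CPM. Phgdh, the first enzyme of serine synthesis, had 41.4, 205 and 22.9 CPM against 26.2, 44.04 and 6.31 CPM, and Fasn, fatty acid synthase, 228, 742 and 162 CPM against 154, 251 and 48.0 CPM. All 4 were lower in LY6G within each number and overlapped across numbers. Among the higher calls, Slc7a11, the cystine transporter, had 420, 124 and 553 CPM against 679, 635 and 989 CPM, and F3, tissue factor, 5.74, 1.47 and 2.72 CPM against 14.7, 8.92 and 7.02 CPM. Both had groups that did not overlap, at log2 differences of 1.26 ± 0.32 and 1.67 ± 0.42 (DESeq2 with the block, adjusted p = 0.0126 for both).

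Gene models without a known product made up a large part of what stood higher in LY6G. The TEC class of GENCODE holds single-exon models that await experimental evidence. Of 656 TEC models tested, 593 had a positive difference and 377 were higher in every number (57.5%, beside 18.5% of all genes). Of the 656, 236 had groups that did not overlap with LY6G higher, where 6.5% of all genes had. The median was 0.74 (0.57, 1.15 and 0.69 by number). The summed TEC level was 2211, 1471 and 2302 CPM in LY6C and 3479, 3219 and 3520 CPM in LY6G, without overlap. Gm38257, a TEC model, had 6.85, 2.95 and 2.72 CPM against 17.0, 17.7 and 13.2 CPM. Of the 65 higher calls of DESeq2 with the block, 38 carried a model name. By class, 27 of the 65 were TEC models and 4 were long intergenic RNAs. The long intergenic RNA class leaned the same way by gene, with 183 of 261 positive and a median of 0.30. Its summed level did not, at 7721, 196981 and 39663 CPM in LY6C and 13827, 15323 and 20328 CPM in LY6G.

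GC content moved with the population difference. TEC models had a median transcript GC content of 42.1% against 49.0% over all tested genes. Among protein-coding genes, the fifth with the lowest GC content (up to 43.3%) had a median log2 difference of 0.14 and the fifth with the highest (from 55.0%) −0.27, and the order held in numbers 2, 3 and 6. Over 13114 genes of all classes the difference correlated with GC content at Pearson's r = −0.36 and Spearman's rho = −0.36 (a description across genes, which share the 6 libraries). Genes called lower by DESeq2 with the block had a median GC content of 54.1% and those called higher 41.3%. The 12 lower genes without overlap named above had a median of 58.2% and the 12 higher 42.8%. With offsets that level each library over 20 bins of GC content, the medians were 0.52 for TEC models, −2.17 for primary granule, −0.57 for histone and 0.38 for inflammatory genes, so each kept its sign.

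**Figure D3:**
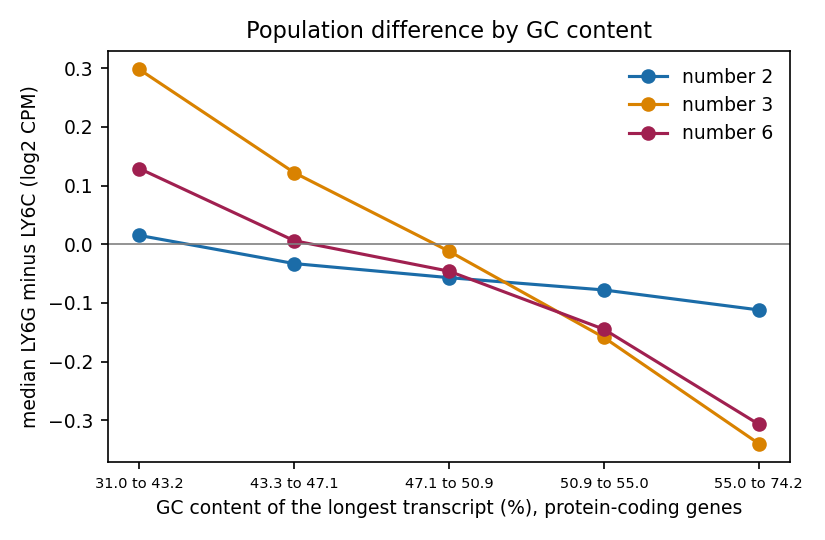
Median log2 difference of LY6G minus LY6C over protein-coding genes in 5 equal groups of GC content, for each replicate number. All 3 lines run downward from low to high GC content, least in number 2, from 0.02 to −0.11, and most in number 3, from 0.30 to −0.34.

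The replicate number separated the libraries more than the population did. In a model with both terms, edgeR's quasi-likelihood test called 933 of 13123 genes for the number (7.11%) at an adjusted p under 0.05. Number 6 was the farthest from the others for most of them, with 314 genes higher (2.39%) and 364 lower (2.77%). Number 3 was farthest for 169 higher (1.29%) and 39 lower (0.297%), and number 2 for 39 higher (0.297%) and 8 lower (0.061%). The median share of a gene's sum of squares over the 6 libraries was 54.8% for the number (2 degrees of freedom) and 15.6% for the population (1 degree of freedom). Each number holds 1 LY6C and 1 LY6G library, and values of both are given for the genes named next. What a number stands for is not in the labels, and culture, mice, day and library preparation cannot be told apart.

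**Figure D4:**
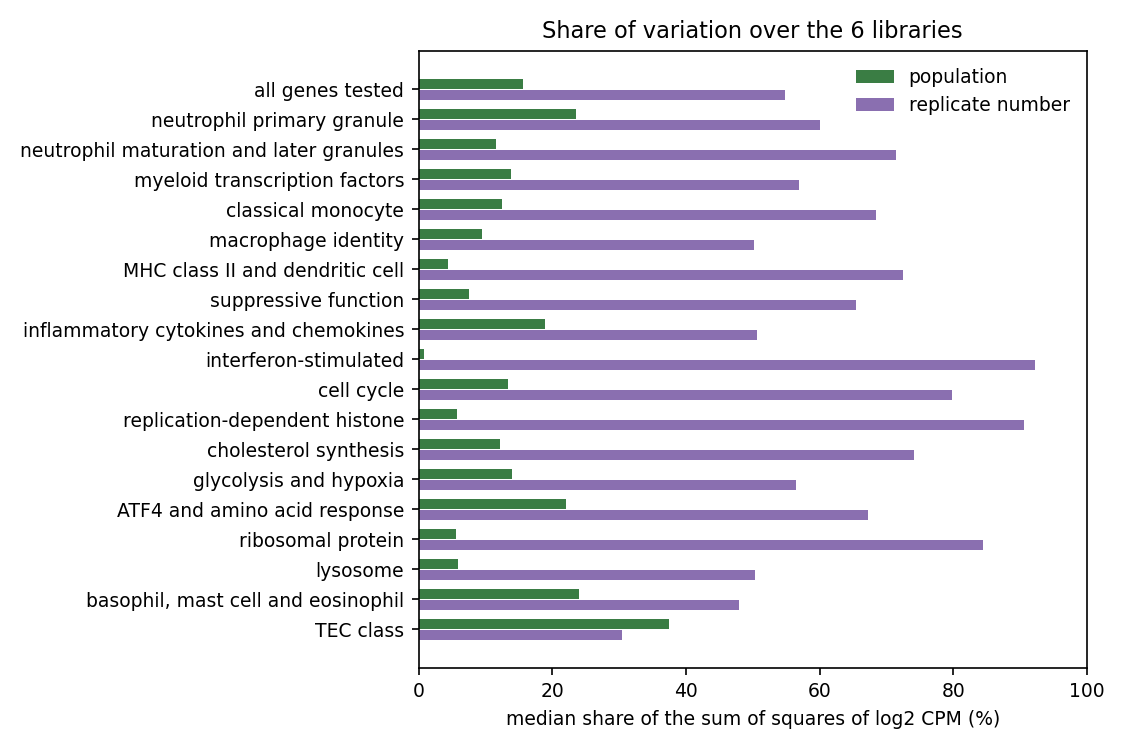
Median share of the sum of squares of log2 CPM over the 6 libraries that goes with the population (green) and with the replicate number (purple), for all genes and the lists drawn. The number holds 92.2% of the variation of interferon-stimulated genes and the population 0.781%, while for TEC models the population has the larger share. Not drawn are erythroid genes (42% population, 30.9% number) and sort antigens (26.5% and 23.4%), where it is the larger too.

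Interferon-stimulated genes were high in number 6. Of 26 tested, 24 were called for the number, all 24 with number 6 higher, beside 2.39% of all genes. Ifit3 (ENSMUSG00000074896, chromosome 19, 34583531 to 34588731), an antiviral RNA-binding protein, had 14.0, 12.6 and 241 CPM in LY6C and 12.6, 17.3 and 185 CPM in LY6G. Rsad2 (ENSMUSG00000020641, chromosome 12, 26442746 to 26456452), the antiviral enzyme viperin, had 55.9, 36.0 and 959 CPM against 63.3, 134 and 638 CPM. Irf7, the transcription factor that amplifies interferon production, had 88.3, 85.5 and 923 CPM against 89.2, 159 and 660 CPM. Mx1, an antiviral GTPase, had 23.9, 35.0 and 632 CPM against 33.0, 103 and 352 CPM. For these 4 genes both libraries of number 6 lay above the other 4 libraries.

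Number 6 minus the mean of the other numbers was 3.90 ± 0.24 for Ifit3, 3.601 ± 0.434 for Rsad2, 2.95 ± 0.30 for Irf7 and 3.58 ± 0.42 for Mx1 on the log2 scale (SE, edgeR adjusted p for the number of 0.000297, 0.00646, 0.00361 and 0.00517). The list's median was 2.06 for number 6 minus number 2 and 1.91 for number 6 minus number 3. The 2 members not called were Gbp2, at 13.6, 7.16 and 48.6 CPM against 13.03, 15.7 and 22.3 CPM, and Irgm1, at 11.4, 4.00 and 26.04 CPM against 9.29, 11.6 and 19.7 CPM, both highest in number 6 in each population. Between populations the list had 20 negative and 6 positive differences, a median of −0.32, and medians of −0.13, 0.63 and −0.47 by number. That median of −0.32 lay between −1.22 and 1.08 when libraries were left out. The count of 24 was 24 with GC offsets and 24 in libraries thinned to 1 total over tested genes outside ribosomal RNA, 25 without the LY6C library numbered 3, 8 without the LY6C library numbered 2, 16 without the LY6G library numbered 2 and 0 of 26 without number 6.

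Promoters of 3 of these genes that hold the letters below are shown because the genes moved together. The interferon-stimulated response element core, GAAA, any 2 bases and GAAA on either strand, was found in the promoter window (300 bases, RefSeq, GRCm38.p6) of 14 of the 21 listed genes with a window (66.7%), against 370 of 9322 tested genes (3.97%) and 1131 of all 32851 windows (3.44%). Capitals mark each match, which reads on the opposite strand in these 3 windows, and each window is printed 5′ to 3′ on the strand of its gene. The window of Ifit3 is chr19:34583279-34583578 on the plus strand, that of Ifit1 chr19:34640639-34640938 on the plus strand and that of Rsad2 chr12:26456403-26456702 on the minus strand.
Ifit3: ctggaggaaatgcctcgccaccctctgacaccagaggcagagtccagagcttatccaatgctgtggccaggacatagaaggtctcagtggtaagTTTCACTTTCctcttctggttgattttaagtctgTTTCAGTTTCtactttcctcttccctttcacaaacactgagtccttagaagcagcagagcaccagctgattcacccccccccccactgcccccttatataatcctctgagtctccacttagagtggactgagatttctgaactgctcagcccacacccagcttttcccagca
Ifit1: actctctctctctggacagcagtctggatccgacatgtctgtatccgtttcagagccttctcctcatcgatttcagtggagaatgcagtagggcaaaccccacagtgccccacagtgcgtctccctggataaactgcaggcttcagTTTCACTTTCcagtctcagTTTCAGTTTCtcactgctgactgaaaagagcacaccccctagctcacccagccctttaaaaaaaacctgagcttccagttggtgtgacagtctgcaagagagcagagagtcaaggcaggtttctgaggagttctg
Rsad2: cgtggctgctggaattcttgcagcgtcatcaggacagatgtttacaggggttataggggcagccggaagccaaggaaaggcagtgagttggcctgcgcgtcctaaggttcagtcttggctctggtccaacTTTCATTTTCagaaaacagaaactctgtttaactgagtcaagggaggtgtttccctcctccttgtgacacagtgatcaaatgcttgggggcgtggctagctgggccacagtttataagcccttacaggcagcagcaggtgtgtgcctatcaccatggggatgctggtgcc
Ifit3 and Ifit1 each had 2 matches and Rsad2 had 1. Ifit1, a neighbour of Ifit3 on chromosome 19, had 30.9, 27.6 and 159 CPM in LY6C and 21.7, 30.8 and 145 CPM in LY6G. A match is a description of the letters in the window.

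Other antigen presentation genes went with number 6 as well. H2-Q6, H2-Q7 and H2-Q5, nonclassical MHC class I genes, were among the 8 genes with the lowest p for the number. H2-Q6 had 15.4, 15.6 and 408 CPM in LY6C and 9.98, 15.2 and 219 CPM in LY6G, a difference of number 6 from the others of 4.43 ± 0.24 (edgeR adjusted p = 0.000297). H2-Q genes are near-identical copies, and so are Ifit3 and Ifit3b, so single levels are uncertain. The MHC class I list was drawn by gene name (H2-Q, H2-T, H2-K, H2-D and H2-M3), which also took in H2-DMb1, a class II gene. Of its 12 genes tested, 7 were called (58.3%, beside 7.11% of all genes), 5 of them with number 6 higher and 1 with number 2 higher. The 1 called with number 6 lower was H2-DMb1. The count was 4 without the LY6C library numbered 2, 11 without the LY6C library numbered 3 and 1 without number 6. MHC class II genes went the opposite way. H2-Aa, a chain of the class II molecule, had 142, 69.7 and 39.0 CPM in LY6C and 127, 157 and 30.8 CPM in LY6G, and Ciita, the master regulator of class II, 34.8, 27.4 and 10.7 CPM against 25.5, 43.3 and 5.61 CPM. Number 6 was the lowest in both populations for both genes. Of the 15 genes of this list 3 were called (20%, beside 7.11% of all genes). All 3 had number 6 lower (H2-Aa, Ciita and H2-DMb1, edgeR adjusted p of 0.0334, 0.0233 and 0.0147).

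Suppressive genes varied with the number. Of 25 tested, 8 were called, beside 7.11% of all genes. Number 6 was higher for Arg1, Nos2, Ptges, which makes prostaglandin E2, Slc7a2, an arginine transporter, Hif1a, the oxygen-sensing factor, and Vegfa, the endothelial growth factor. The difference of number 6 from the others was 5.17 ± 0.48 for Arg1 (edgeR adjusted p = 0.00331) and 5.96 ± 0.67 for Nos2 (0.0124). Vegfa had 79.2, 100.3 and 507 CPM in LY6C and 111, 68.9 and 355 CPM in LY6G. Slc7a2 had 140, 61.5 and 699 CPM against 181, 208 and 651 CPM. Number 3 was lower for Cd274, the checkpoint ligand PD-L1, at 314, 60.7 and 417 CPM against 266, 183 and 559 CPM, and for Ptgs2, cyclooxygenase 2, at 252, 45.7 and 172 CPM against 258, 128 and 252 CPM. The count of 8 lay between 4 and 10 when 1 library was left out, and was 1 without number 6. The count of inflammatory genes called was 9 of 28 (32.1%, beside 7.11% of all genes). That count was 1 without the LY6C library numbered 2, 2 without the LY6G library numbered 2, 20 without the LY6G library numbered 3 and 0 of 28 without number 6. Of the 9, 6 had number 6 higher, including Il6, at 6.29, 3.16 and 36.0 CPM against 7.01, 10.4 and 48.1 CPM, and Cxcl1, at 7.13, 3.79 and 46.7 CPM against 17.6, 17.7 and 55.6 CPM.

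**Figure D5:**
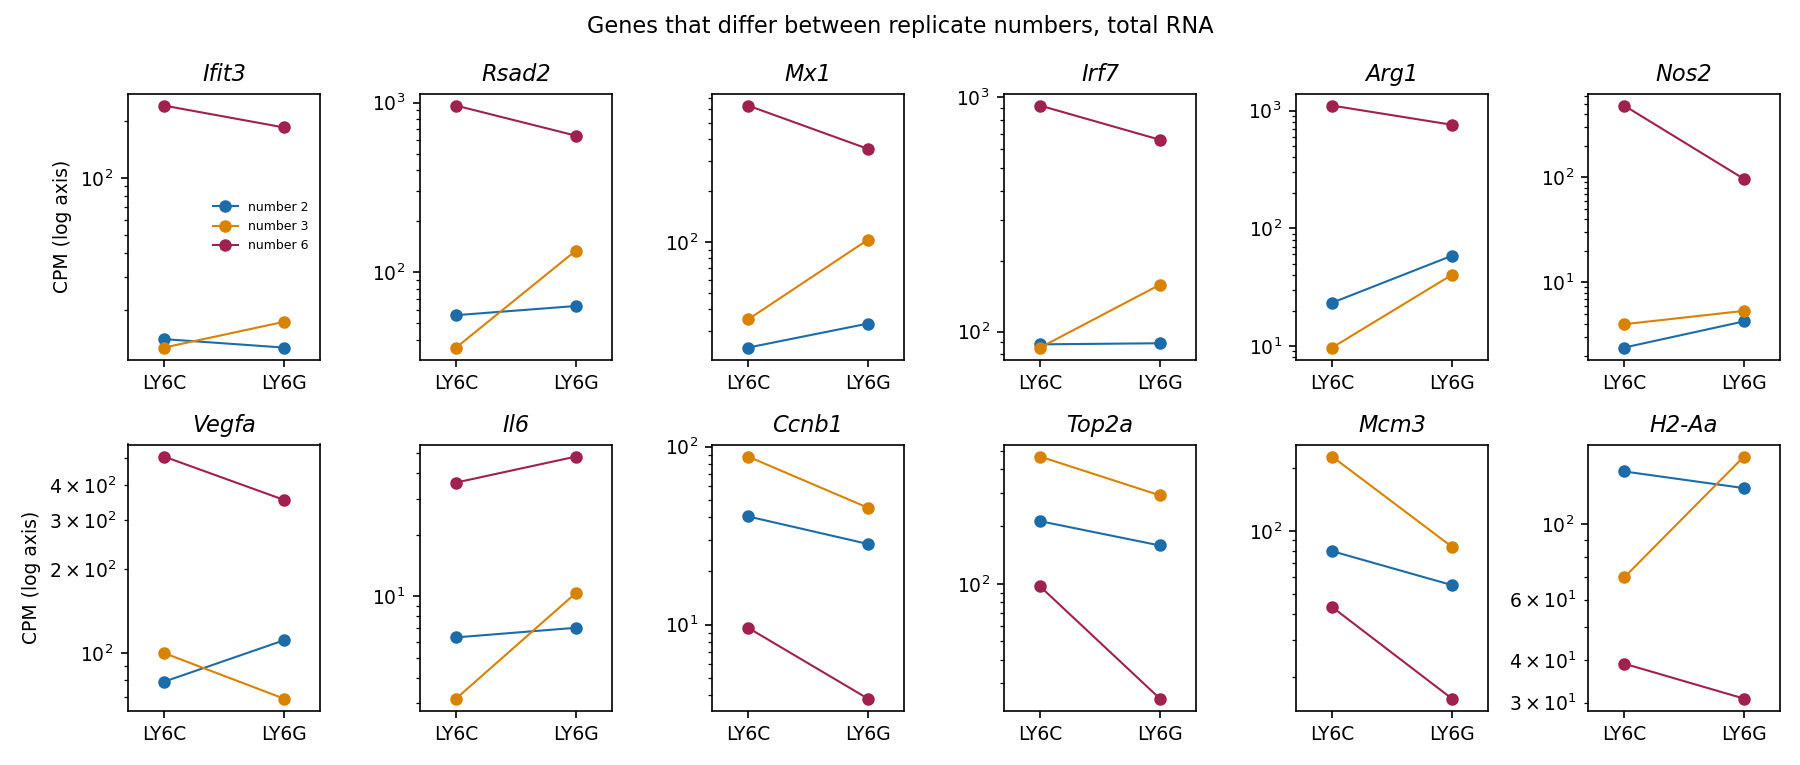
Level in CPM (log axis, its range set for each gene) of 12 genes by population, with a line for each replicate number. The line of number 6 lies above the others for Ifit3, Rsad2, Mx1, Irf7, Arg1, Nos2, Vegfa and Il6 and below them for Ccnb1, Top2a, Mcm3 and H2-Aa.

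Proliferation genes were low in number 6 and high in number 3. All 32 tested cell cycle genes were called for the number, 28 with number 6 farthest and lower and 4 with number 3 farthest and higher. Over all genes 7.11% were called, 2.77% with number 6 farthest and lower and 1.29% with number 3 farthest and higher. Ccnb1, the mitotic cyclin B1, had 40.5, 87.8 and 9.59 CPM in LY6C and 28.4, 45.4 and 3.84 CPM in LY6G. Its difference of number 6 from the others was −2.93 ± 0.28 (edgeR adjusted p = 0.00288), and that of Mcm3 was −1.89 ± 0.28 (0.00646). Both libraries of number 6 lay below the other 4 for Ccnb1 and for Mcm3. The 4 genes with number 3 farthest were Cdc6, Cdt1, Foxm1 and E2f1. Of 58 replication-dependent histone genes 51 were called, all with number 6 lower, and Hist1h3c, 1 of the 8 genes with the lowest p, had 123, 199.7 and 15.7 CPM against 92.6, 102.5 and 7.22 CPM. Of 80 ribosomal protein genes 33 were called (41.2%), 20 with number 6 lower and 13 with number 3 higher. Of 23 cholesterol synthesis genes 11 were called (47.8%), 7 with number 6 lower and 4 with number 3 higher. Without number 6, 3 of 32 cell cycle and 1 of 59 histone genes were called. Without the LY6C library numbered 2, ribosomal protein genes had 3 of 80 called.

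The promoters of 2 Mcm genes that hold the letters below are shown. Their RNA was lower both in LY6G and in number 6, which did not single them out. All 32 tested cell cycle genes were lower in LY6G in every number, and 28 had number 6 farthest and lower. The 2 windows do not stand for the list, where 6 of 25 genes had a match. The letters TTTGGCGC or TTTCCCGC, forms of the E2F site of cell cycle promoters, were found on either strand in 6 of 25 cell cycle genes with a window (24%), against 332 of 9322 tested genes (3.56%). The CCAAT box, CCAAT on either strand, was in 19 of the 25 (76%) against 43% of the tested genes. Capitals mark the E2F letters. The Mcm3 window is chr1:20820263-20820562 on the minus strand and the Mcm5 window chr8:75109259-75109558 on the plus strand (GRCm38.p6, RefSeq), each printed 5′ to 3′ on the strand of the gene.
Mcm3: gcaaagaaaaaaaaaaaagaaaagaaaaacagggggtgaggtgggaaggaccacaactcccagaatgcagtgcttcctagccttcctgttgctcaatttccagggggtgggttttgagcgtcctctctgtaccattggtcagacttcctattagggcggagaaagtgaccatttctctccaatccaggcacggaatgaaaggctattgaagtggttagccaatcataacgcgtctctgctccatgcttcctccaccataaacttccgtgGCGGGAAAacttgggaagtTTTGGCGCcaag
Mcm5: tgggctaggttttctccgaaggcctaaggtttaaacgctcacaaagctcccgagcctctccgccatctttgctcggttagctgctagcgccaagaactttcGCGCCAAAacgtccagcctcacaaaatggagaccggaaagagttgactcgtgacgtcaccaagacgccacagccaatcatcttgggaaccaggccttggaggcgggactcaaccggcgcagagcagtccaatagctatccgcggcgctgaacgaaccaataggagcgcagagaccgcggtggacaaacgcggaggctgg
Mcm5, another subunit of that helicase, had 96.1, 243 and 49.1 CPM in LY6C and 65.8, 95.1 and 18.5 CPM in LY6G. Mcm3 had 2 matches and Mcm5 had 1.

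In polysome-bound RNA of the same populations and numbers, the cell cycle list again stood lower in LY6G, with medians of −0.39, −0.78 and −1.53 in numbers 2, 3 and 6 and 29 of 32 genes lower in every number. The primary granule medians were −0.50, −3.22 and −0.81, with 7 of 9 genes lower in every number. TEC models were higher, at 0.43, 0.85 and 1.75, with 429 of 656 higher in every number. For the inflammatory list the polysomal medians were 0.24, 1.29 and −0.54, with 6 of 28 genes higher in every number. Of all 13123 genes, 2767 were lower and 2799 higher in every number in polysome-bound RNA. The inflammatory count is thus close to the share of all genes in the polysomal libraries. These libraries carry the same numbers and come from cytoplasmic extracts of the same populations, so they are not independent support.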

How the data were processed

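Sequencing was of ribosome-depleted, stranded libraries, and the submitters' processing notes name FastQC, STAR 2.5.2a, DESeq, DESeq2 and the GRCm38 (mm10) build. The counting program and its strand setting are not given in the sources used here, so reads of a gene and an antisense partner may not be separated. The values are raw gene counts as deposited by the authors, for 54838 genes, of which 54809 identifiers matched GENCODE M21. Here 6 of 18 libraries were fitted with edgeR 4.0.16 (R 4.3.3): a minimum count of 10 by its expression filter left 13123 genes, scaling was by trimmed mean, and the quasi-likelihood test was robust with a prior count of 2 and Benjamini-Hochberg adjustment at 0.05. Alternatives used DESeq2 1.42.0, limma 3.58.1, the replicate number as a block, GC offsets and thinned libraries. Libraries of the same number deviated together from their population means (correlations of 0.43, 0.45 and 0.59 for numbers 2, 3 and 6, above the threshold of 0.1). The numbers were therefore taken to pair the libraries in the fits with the block. The main population test, the list medians over all libraries and the ranking of named genes used no block and ignore this pairing. Scripts were tested on counts simulated from the means and dispersions of the blocked fit. There edgeR without the block recovered 0 of 100 genes changed 2-fold and 25 of 100 changed 4-fold. With the block it recovered 51 of 100 and 100 of 100, with 6 false calls. A count of 0 without the block therefore does not show that 2-fold changes were absent. The gene lists hold 461 genes, of which 380 were tested. The members and lists were chosen with earlier results of these data known. Named genes were the 12 with the lowest p in each direction among genes of at least 10 CPM without overlap, 8 genes of lowest p for the number, fixed identity genes and list members by level or call. Figures were drawn with matplotlib 3.10.9. Total counts per library limit precision, and p-values cover the spread between these libraries.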

Additional observations from a re-analysis of the deposited data

How the results depend on the processing

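Under 29 settings, which include fits with the replicate block and alternatives chosen after seeing the data (GC offsets, thinned libraries and further leave-outs), the population difference gave 0 genes in every edgeR and limma fit that kept all 6 libraries, and 195 genes in DESeq2 with the replicate block. Leaving out libraries or numbers gave 0 to 51 genes, the 51 with the block and without number 6. For the replicate number the count of 933 lay between 162 (without number 6) and 2161 (without the LY6G library numbered 3), with 302 without the LY6C library numbered 2. Of 983 values of 34 named genes, 67 had the opposite sign. Of 869 list medians, 78 moved by more than the standard deviation of that list's medians within the 3 numbers. For lists in which number 3 stood apart that spread is wide, so a move is harder to reach. The opposite signs were those of Ly6g, Csf1r, Arg1, Nos2, S100a8 and S100a9, none of which was called for the population by edgeR or by DESeq2 with the block. With the replicate block the log2 difference was −0.11 for Ly6g, 0.11 for Csf1r, 0.91 for Arg1 and 0.06 for S100a8. With the block, DESeq2, median-ratio factors, a minimum of 50 counts, GC offsets and thinned libraries gave −0.15, −0.13, −0.09, −0.14 and −0.05 for Ly6g, 0.09, 0.09, 0.13, 0.20 and 0.14 for Csf1r, and 0.91, 0.89, 0.94, 0.86 and 0.87 for Arg1. For S100a8 they gave 0.04, 0.04 and 0.09, and 0.12 thinned. Limma with the block gave 0.09 for Csf1r, 0.86 for Arg1, 0.22 for S100a8 and 0.09 for S100a9, and without it −0.43 for Ly6g, 0.08 for Csf1r, 0.11 for Arg1, 0.35 for S100a8 and 0.09 for S100a9. Csf1r was at 0.00 with no filter, 0.01 with a minimum of 50 counts, 0.01 with all 18 libraries, 0.08 with GC offsets and 0.02 thinned. Leaving out libraries gave −0.99 to 0.80 for Ly6g, −0.30 to 0.37 for Csf1r, −2.94 to 4.08 for Arg1, −5.08 to 3.54 for Nos2, −0.71 to 0.45 for S100a8 and −0.87 to 0.63 for S100a9. The cause was not tested. The LY6C libraries numbered 3 and 6 had 4.75 and 6.26 counts for 1 CPM, which limits genes of a few CPM.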
